A study of Mus musculus with 12 samples.

Results

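The nuclear genes of the mitochondrial respiratory chain and of ATP synthase were followed through spermatogenesis in PWD and B6 male mice. The set held every probeset that names a single gene whose symbol belongs to the subunit families of complex I (*Nduf* a, b, c, s and v), complex II (*Sdha* to *Sdhd*), complex III (*Uqcr*), complex IV (*Cox4* to *Cox8*) and ATP synthase (*Atp5*), or that names cytochrome c (*Cycs* or *Cyct*). It comprised 169 of the 45037 probesets tested and 83 of the 18193 genes with a probeset of their own: 35 genes of complex I, 4 of complex II, 8 of complex III, 2 cytochrome c genes, 17 of complex IV and 17 of ATP synthase. Of several probesets of a gene, the one with the highest average signal stood for it, and 34 of the 83 genes had only 1. On the log2 scale of the deposited values, the background level was set at 5.32, which 95% of 61 probesets for transcripts of other organs (albumin, for example) did not exceed on average. The mean of 75 members lay above it. The 8 members that did not were *Ndufa4*, *Ndufa4l2*, *Ndufb4*, *Cox4i2*, *Cox6a2*, *Cox7a1*, *Cox8a* and *Cox8b*.

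The respiratory chain passes electrons from NADH (complex I) and succinate (complex II) through complex III and cytochrome c to oxygen at complex IV, and ATP synthase uses the resulting proton gradient to make ATP. Most of its subunits are encoded in the nucleus. A few exist as paralogs, and the testis is known for germ-cell forms of cytochrome c (*Cyct*, beside the somatic *Cycs*) and of the complex IV subunits 6B, 7B and 8 (*Cox6b2*, *Cox7b2* and *Cox8c*). The X chromosome is transcriptionally silenced in pachytene spermatocytes, a process termed meiotic sex chromosome inactivation, so that X-linked members such as *Ndufa1* and *Ndufb11* differ from the rest by position.

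The study compared sorted testicular cells of 2 inbred strains with Affymetrix mouse genome arrays, which read 3′ transcript ends with short oligonucleotide probes. Males of PWD/Ph, a strain derived from *Mus m. musculus*, and of C57BL/6J (B6) were 8 to 10 weeks old and untreated. Prepachytene spermatocytes (LP, a sort of leptotene, zygotene and early pachytene cells), pachytene spermatocytes (RP, mid to late pachytene and diplotene cells) and spermatids (ST) each gave 2 arrays per strain, 12 in all. Because LP holds early pachytene cells, "into pachytene" below stands for RP compared with LP, and "into spermatids" for ST compared with RP. The duplicates came from 2 animals, although the labels do not tie an array to an animal, and with 2 arrays a group the p-values measure only the spread between these samples.

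The marker genes of the sorted stages followed the labels, with signals of other stages or cells in the LP and ST sorts. The mean log2 value of 12 prepachytene markers was 10.88 to 11.43 on the LP arrays and at most 7.37 on the others, that of 10 pachytene markers was at most 10.23 on the LP arrays, 13.19 to 13.55 on the RP arrays and 12.61 to 12.98 on the ST arrays (3 of the 10 were called lower and 2 higher in ST than in RP), and that of 12 spermatid markers was 13.19 to 14.04 on the ST arrays. Spermatid markers were also present on the LP arrays, with means of 11.14 and 11.16 in B6 and of 11.82 and 12.29 in PWD, against 10.00 to 10.67 on the RP arrays, and all 12 of them were above the background level on every array. The 7 spermatogonial markers averaged 6.31 to 7.16 on the LP arrays, where 4 or 5 of them were above the background level, and none of them was above it on the RP arrays. The 10 Sertoli cell markers averaged 5.87 to 6.90 on the LP arrays and 3.92 to 5.28 elsewhere, while Leydig cell markers (4 genes) and those of peritubular and blood cells (8 genes) had at most 1 gene above the background level. The part of these cells in the differences below was not tested, and in sorted populations fewer cells of a type and less RNA per cell cannot be told apart.

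The promoters of both pairs of a testis form and its somatic counterpart that could be compared in full are shown because the paralogs behaved in opposite ways, as described next. Each runs 5′ to 3′ from 250 bases before to 50 bases after the start of transcription in RefSeq (GRCm38.p6, minus strand), and capitals mark the matches, on either strand, to the letters of a cAMP response element (CRE, TGACGTCA), of the NRF1 motif (GCGC and TGCGC with any base between them), of an ETS site (CCGGAAG) and of a CCAAT box. The window of *Cyct* lies at chr2:76360404-76360703, that of *Cycs* at chr6:50566520-50566819, that of *Cox6b2* at chr7:4753045-4753344 and that of *Cox6b1* at chr7:30626065-30626364.
Cyct: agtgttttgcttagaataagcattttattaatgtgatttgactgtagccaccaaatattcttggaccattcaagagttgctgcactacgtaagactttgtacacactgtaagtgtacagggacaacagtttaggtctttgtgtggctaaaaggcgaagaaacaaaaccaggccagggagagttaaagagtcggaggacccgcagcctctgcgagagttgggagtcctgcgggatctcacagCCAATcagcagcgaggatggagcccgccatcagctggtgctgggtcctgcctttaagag
Cycs: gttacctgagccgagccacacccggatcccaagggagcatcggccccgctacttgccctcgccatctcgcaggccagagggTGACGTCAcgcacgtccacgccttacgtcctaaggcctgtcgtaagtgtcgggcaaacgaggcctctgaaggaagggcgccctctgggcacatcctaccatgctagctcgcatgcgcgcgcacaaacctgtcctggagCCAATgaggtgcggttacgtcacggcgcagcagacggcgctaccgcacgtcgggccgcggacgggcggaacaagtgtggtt
Cox6b2: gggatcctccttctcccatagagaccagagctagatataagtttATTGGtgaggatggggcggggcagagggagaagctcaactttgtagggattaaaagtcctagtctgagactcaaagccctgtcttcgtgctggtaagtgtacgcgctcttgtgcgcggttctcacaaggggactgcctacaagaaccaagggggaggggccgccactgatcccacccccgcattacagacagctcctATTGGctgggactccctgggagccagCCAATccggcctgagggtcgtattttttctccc
Cox6b1: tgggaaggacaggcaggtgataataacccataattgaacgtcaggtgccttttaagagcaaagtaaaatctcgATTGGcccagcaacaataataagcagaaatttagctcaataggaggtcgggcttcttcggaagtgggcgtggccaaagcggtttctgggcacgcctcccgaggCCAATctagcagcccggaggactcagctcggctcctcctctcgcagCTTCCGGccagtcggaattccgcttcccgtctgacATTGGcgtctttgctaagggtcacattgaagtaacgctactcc
A CRE match stood 169 bases before the start of *Cycs*, with a CCAAT match at −31. *Cyct* held a CCAAT match at −9, *Cox6b2* held CCAAT matches at −206, −9 and 18, and *Cox6b1* held an ETS match at −28 and CCAAT matches at −177, −74 and 8. Of the 83 members, 68 had a promoter sequence. An NRF1 match was found in 15 of them (22.1%, against 5.19% of 27025 genes), an ETS match in 17 (25%, against 9.93%), a CRE match in 4 (5.88%, against 2.03%: *Cycs*, *Ndufa10*, *Ndufb2* and *Uqcrfs1*) and a CCAAT match in 30 (44.1%, against 41.1%). These matches describe the letters of the windows and not binding.

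The testis form of cytochrome c was higher in RP than in LP, while the somatic form was lower. *Cycs*, which encodes the cytochrome c of most tissues (chr6:50562563-50566569), stood at 13.95 and 13.95 on the B6 LP arrays, at 7.63 and 7.32 on the B6 RP arrays and at 10.40 and 10.48 on the B6 ST arrays. In PWD the values of *Cycs* were 14.92 and 14.76 in LP, 7.64 and 7.37 in RP and 9.59 and 10.06 in ST. Every RP array was thus below every ST array, which in turn was below every LP array. Into pachytene *Cycs* fell by 6.90 log2 units (SE 0.132, 120-fold, limma adjusted p = 9.82e-09) and rose by 2.64 into spermatids (SE 0.132, adjusted p = 3.7e-06). The other probesets of *Cycs* with a mean above the background level changed in the same direction, by −6.45 and −7.46 into pachytene and by 2.67 and 1.54 into spermatids.

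*Cyct*, the cytochrome c of germ cells (chr2:76353942-76360453), gave log2 values of 11.21 and 10.68 in B6 LP, 12.30 and 12.10 in B6 RP and 11.25 and 11.16 in B6 ST. On the PWD arrays *Cyct* was measured at 11.89 and 10.68 in LP, 12.82 and 13.09 in RP and 11.00 and 11.41 in ST. The RP arrays were above all others, and the LP and ST arrays overlapped. *Cyct* rose by 1.46 into pachytene (SE 0.26, adjusted p = 0.00162) and fell by 1.37 into spermatids (SE 0.26, adjusted p = 0.00371). The array gives no level of a gene relative to another, so that the isoforms were compared by the change of their difference within each array. The *Cyct* minus *Cycs* difference was 8.37 higher on the log2 scale in RP than in LP and 4.02 lower in ST than in RP. Both changes had p = 0.0286 in a two-sided exact permutation test of 4 arrays against 4, which is the smallest value this test can give, and an adjusted p of 0.0343 over the 6 isoform comparisons made.

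The complex IV subunit 6B showed the same opposition at the first step only. *Cox6b2*, the testis form, had log2 values of 9.72 and 9.25 in B6 LP, 11.77 and 11.86 in B6 RP and 11.76 and 11.74 in B6 ST. In PWD its values were 10.92 and 10.72, 12.72 and 12.90, and 12.54 and 12.48 in the same order. It rose by 2.16 into pachytene (SE 0.114, adjusted p = 9.93e-07) and changed by −0.18 into spermatids, which did not pass the test (adjusted p = 0.346). *Cox6b1*, the somatic form, was at 13.18 and 13.05 in B6 LP, 10.21 and 10.42 in B6 RP and 10.54 and 10.70 in B6 ST, and at 13.64 and 13.44, 10.70 and 11.47, and 10.12 and 10.60 in PWD. It fell by 2.63 into pachytene (SE 0.182, adjusted p = 5.17e-06), and its RP and ST arrays overlapped (difference −0.21, adjusted p = 0.55). The *Cox6b2* minus *Cox6b1* difference was 4.79 higher in RP than in LP (exact permutation p = 0.0286, adjusted p = 0.0343) and differed by 0.02 between ST and RP (exact permutation p = 0.943).

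The other testis forms of complex IV rose into pachytene as well. *Cox8c* (chr12:102899306-102900534) was at 10.48 and 9.86 in B6 LP, 13.00 and 12.84 in B6 RP and 11.93 and 11.96 in B6 ST, with PWD values of 10.32 and 9.76, 13.07 and 13.30, and 11.94 and 12.08. It had the largest rise into pachytene of the members above the background level, 2.95 (SE 0.169, adjusted p = 1.62e-06), and it fell by 1.07 into spermatids (SE 0.169, adjusted p = 0.0013). *Cox7b2* (chr5:71442823-71548205) was at 10.22 and 9.64 in B6 LP, 12.45 and 12.28 in B6 RP and 11.50 and 11.52 in B6 ST, with PWD values of 10.65 and 9.65, 12.71 and 12.67, and 11.65 and 11.88. Its rise into pachytene was 2.49 (SE 0.221, adjusted p = 2.36e-05). Its fall into spermatids, 0.89 (SE 0.221, adjusted p = 0.0151), did not pass the test after a second quantile normalization (adjusted p = 0.0531) or without B6 RP replicate 1 (adjusted p = 0.0514). For both genes the arrays of the 3 populations did not overlap. *Cox8a*, the somatic form of subunit 8, was below the background level on all arrays with all its probesets, so that the change of the *Cox8c* minus *Cox8a* difference (2.92 into pachytene and −1.08 into spermatids, both exact permutation p = 0.0286, adjusted p = 0.0343) reflects *Cox8c* alone. No probeset names only *Cox7b*, and this pair was not compared.

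**Figure D1:**
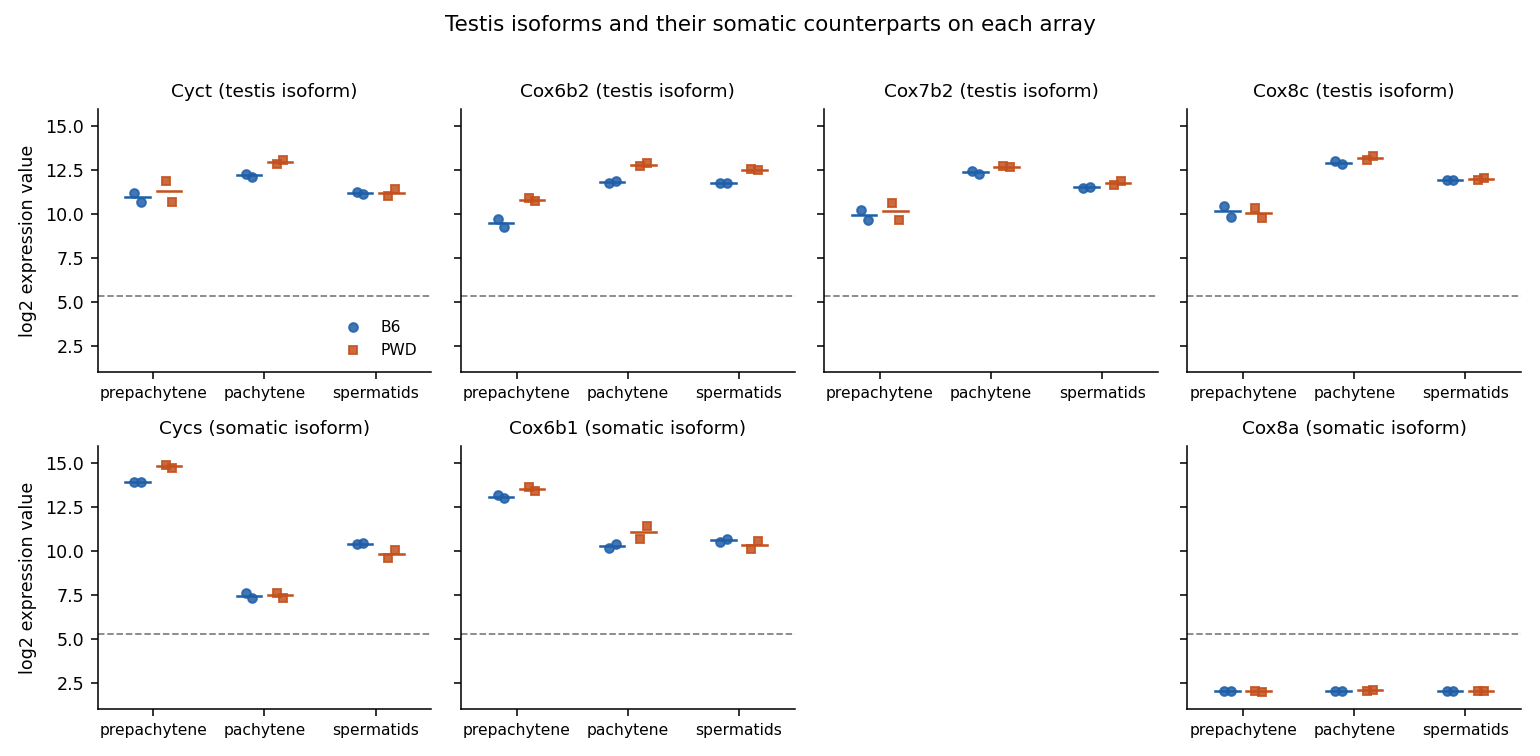
Log2 expression values (vertical axis) of the 4 testis isoforms (upper row) and of 3 somatic counterparts (lower row) in prepachytene spermatocytes, pachytene spermatocytes and spermatids; each point is an array, blue circles B6 and orange squares PWD, short lines mark the means of 2 arrays, and a dashed line marks the background level (5.32). *Cycs* drops from a mean of 14.39 to 7.49 between prepachytene and pachytene and is at 10.13 in spermatids, whereas the testis isoforms are highest in pachytene or, for *Cox6b2*, in pachytene and spermatids.

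The remaining paralogs of complex IV subunits gave 2 kinds of profile. The forms known from heart and skeletal muscle or lung (*Cox4i2*, *Cox6a2*, *Cox7a1* and *Cox8b*) were below the background level on all arrays. The ubiquitous forms were bright and fell: *Cox4i1* by 0.45 into pachytene and by 1.18 into spermatids, *Cox6a1* by 1.22 and 0.62, *Cox7a2l* by 0.31 and 0.59, and *Cox7a2* by 0.59 into pachytene, while its change into spermatids was −0.10 (adjusted p = 0.636). The fall of *Cox7a2l* into pachytene was lost after centring (adjusted p = 0.525) and without B6 LP replicate 2 (0.0616) or PWD RP replicate 1 (0.0632).

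Over all members, falls outnumbered rises at both steps. Between LP and RP, 41 members were lower and 20 higher in RP at a limma adjusted p below 0.05, and 22 did not pass. Over all 18193 genes 28.4% were called lower and 43.7% higher, and over the 8898 genes above the background level 40.8% and 42.2%. The median log2 difference was −0.30 for the members, 0.09 for all genes and 0.04 for the genes above the background level. Between RP and ST, 41 members were lower and 7 higher in ST, against 23.8% lower and 18.2% higher of all genes and 44% and 25.6% of those above the background level, with medians of −0.39, 0.01 and −0.32. Both steps share the RP arrays. When each array was centred on the probesets above the background level, the split became 34 lower and 32 higher at the first step (member median −0.05, all genes 0.34) and 35 lower and 16 higher at the second (−0.13, all genes 0.27), so that the balance of directions at the first step depended on the scaling. No member called at either step changed its sign on centring. The highest of the 3 population means was that of LP in 49 members, of RP in 25 and of ST in 9. The median member was at 12.27 to 12.40 on the LP arrays, at 11.86 to 12.48 on the RP arrays and at 11.29 to 11.88 on the ST arrays, and 73 to 76 members were above the background level on an array.

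**Figure D2:**
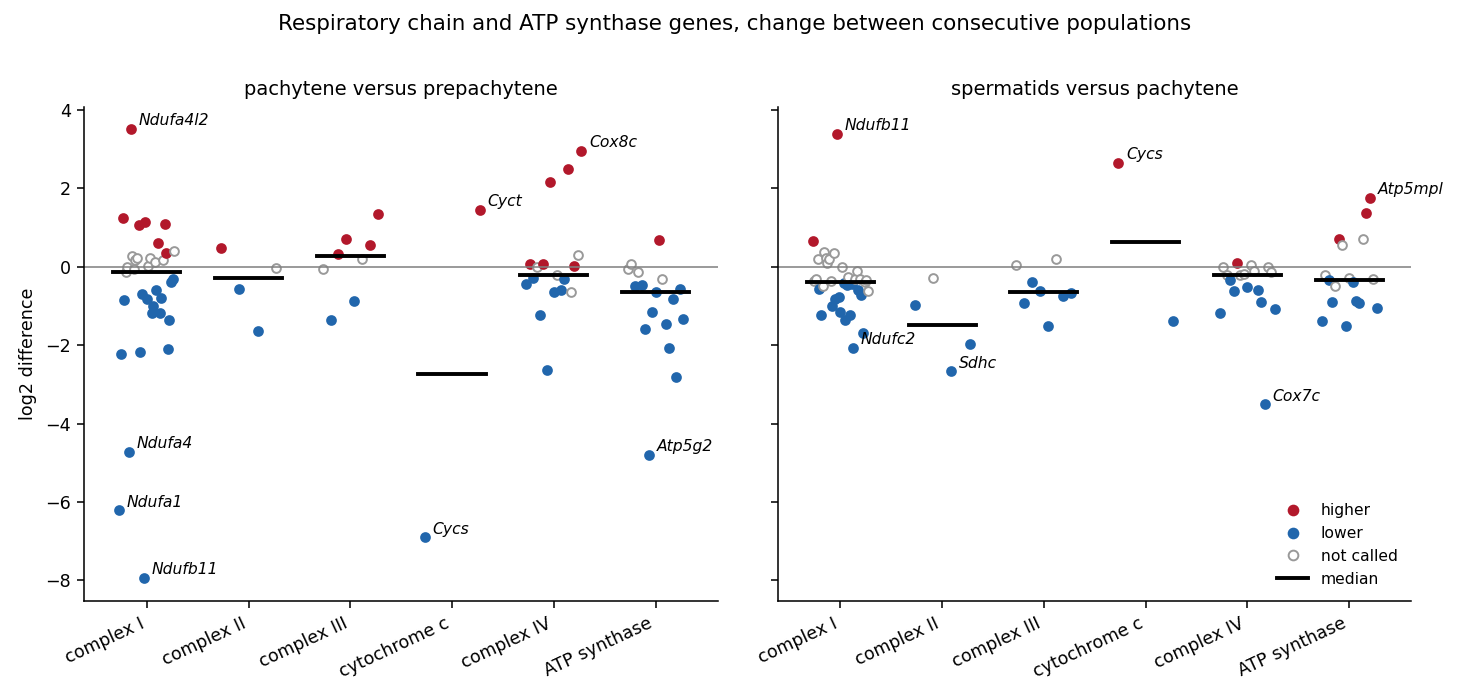
Log2 difference (vertical axis) of each of the 83 members between pachytene and prepachytene spermatocytes (left) and between spermatids and pachytene spermatocytes (right), by complex; red points were called higher, blue points lower and open grey points did not pass the test, and the black line is the median of the complex. At the left step 12 of 17 ATP synthase genes were lower, against 40.8% of the genes above the background level. *Ndufb11*, *Cycs* and *Ndufa1* stand far below the other members.

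The complexes differed in their counts, which are described here without a test between them. In ATP synthase, 12 of 17 genes fell into pachytene and 1, *Atp5j*, rose (median −0.63), and 8 fell and 3 rose into spermatids (median −0.33). The catalytic beta subunit *Atp5b* was nearly level, with LP values of 14.14 and 14.26 in B6 and 13.53 and 13.43 in PWD and RP values of 14.11, 13.85, 13.84 and 13.86 (difference 0.07, adjusted p = 0.527). *Atp5mpl* and *Atp5md*, small accessory subunits, fell and then rose, whereas other small subunits such as *Atp5k* (lower at both steps), *Atp5l* and *Atp5e* (lower into pachytene alone) and *Atp5j2* (lower into spermatids alone) did not. *Atp5mpl* was at 10.33 and 10.32 in B6 LP, 7.56 and 7.18 in B6 RP and 9.27 and 9.59 in B6 ST, and at 10.67 and 10.28, 7.97 and 7.66, and 8.98 and 9.53 in PWD. It thus fell by 2.81 (adjusted p = 2.67e-06) and rose again by 1.75 (SE 0.175, adjusted p = 9.9e-05). *Atp5md* fell by 0.82 into pachytene (adjusted p = 0.00617) and rose by 1.39 into spermatids (SE 0.192, adjusted p = 0.000623), where its values of 11.58, 11.60, 11.62 and 12.14 were above all RP arrays.

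Subunit c, which forms the proton-conducting ring of ATP synthase, is encoded by 3 genes with different presequences and the same mature protein. *Atp5g2* showed the largest change, from 9.77 and 9.71 in B6 LP and 9.51 and 9.88 in PWD LP to 4.62, 4.80, 4.82 and 5.43 in RP (difference −4.80, SE 0.198, adjusted p = 2.59e-07), with 3 of the 4 RP arrays below the background level. *Atp5g1* was at 9.06, 9.08, 9.82 and 9.09 in LP, at 7.37, 7.68, 7.81 and 7.84 in RP and at 8.47, 8.48, 7.91 and 8.66 in ST. It fell by 1.59 (SE 0.21, adjusted p = 0.000293) and rose by 0.70 (SE 0.21, adjusted p = 0.0359), although this rise was lost with a replicate block (adjusted p = 0.0553) and without any 1 of 9 arrays (all but both PWD LP arrays and PWD ST replicate 1; adjusted p = 0.0531 to 0.117). *Atp5g3* fell at both steps, by 1.15 (adjusted p = 0.000157) and 1.52 (adjusted p = 5.89e-05), from 14.17 to 14.60 in LP through 13.01 to 13.56 in RP to 11.50 to 11.99 in ST.

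In complex I, 17 of 35 genes fell and 7 rose into pachytene (median −0.14). The shares called at this step among genes above background were 40.8% lower and 42.2% higher. After centring, 14 fell and 14 rose (median 0.12), so that the balance of directions in complex I depended on the scaling. Into spermatids 15 fell, near the 44% of the genes above the background level, and 2 rose (median −0.37). Apart from the X-linked genes, *Ndufa4* fell most. It was first assigned to complex I by its symbol and is now regarded as a subunit of complex IV. Its values were 8.34, 8.08, 8.39 and 7.59 in LP and 3.19 to 3.83 in RP, which is below the background level on all RP arrays, so that it was at least 6.87-fold lower in RP (fitted difference −4.71, adjusted p = 3.52e-07), and it stayed below that level in ST. The paralog *Ndufa4l2*, known as a hypoxia-induced gene, was at 1.15 to 1.24 in LP, at 6.52 and 6.72 in B6 RP and at 6.65 and 6.23 in B6 ST, whereas all PWD arrays were below the background level. Among core subunits, *Ndufs7* fell by 2.10 (adjusted p = 6.99e-06) and *Ndufs8* by 1.37 (adjusted p = 0.000225) into pachytene, and *Ndufs8* fell by a further 1.68 into spermatids (SE 0.174, adjusted p = 0.00012). Of the supernumerary subunits, *Ndufa10* fell by 2.22 and *Ndufb1* by 2.18 into pachytene. *Ndufa12* rose by 1.25, *Ndufb2* by 1.14, *Ndufs4* by 1.08 and *Ndufa9* by 1.08. *Ndufc2* fell at both steps and reached 10.95 and 10.74 in B6 ST and 11.89 and 12.08 in PWD ST, 2.08 below RP (SE 0.111, adjusted p = 4.92e-06).

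Complex II, which also belongs to the citric acid cycle, fell mainly into spermatids. The membrane anchor *Sdhc* was at 11.89 and 11.64 in B6 LP, 9.94 and 10.17 in B6 RP and 8.02 and 7.86 in B6 ST, and at 10.94 and 10.96, 9.15 and 9.65, and 6.18 and 6.18 in PWD. It fell by 1.63 (adjusted p = 1.35e-05) and then by 2.67 (SE 0.132, adjusted p = 3.64e-06), with no overlap between populations within a strain. The other anchor, *Sdhd*, differed by −0.02 between LP and RP (adjusted p = 0.855) and fell by 1.98 into spermatids (SE 0.116, adjusted p = 7.08e-06). The flavoprotein *Sdha* rose by 0.49 into pachytene (adjusted p = 0.00582) and fell by 0.97 into spermatids (adjusted p = 0.000246). The iron-sulphur subunit *Sdhb* fell by 0.56 into pachytene (adjusted p = 0.00207) and gave −0.28 into spermatids (adjusted p = 0.089).

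In complex III, 4 genes rose and 2 of 8 fell into pachytene (median 0.26), a share of rises near the 43.7% of all genes and 42.2% of those above the background level. *Uqcrq*, which binds ubiquinone, was at 10.75 and 10.55 in B6 LP and 11.60 and 11.27 in PWD LP, and at 12.30, 12.28, 12.48 and 12.48 in RP (rise 1.34, SE 0.122, adjusted p = 2.72e-05). *Uqcrc1* rose by 0.70 (adjusted p = 0.000355) while its partner core protein *Uqcrc2* fell by 0.88 (adjusted p = 0.000138). Into spermatids 6 of the 8 genes fell and none rose (median −0.64), against 44% and 25.6% of the genes above the background level. In complex IV, 7 of 17 genes fell into pachytene, near the 40.8% of the genes above the background level. The 6 that rose were the 3 testis forms and 3 genes below the background level. After centring, 5 genes of complex IV fell and 8 rose at this step, so that this balance depended on the scaling too. Into spermatids 8 fell, near the same 44%, and 1 rose, the 1 being *Cox6a2*, which was below the background level. The largest fall there was that of *Cox7c*, from 8.34, 7.59, 6.42 and 6.55 in RP to 3.36, 4.22, 3.70 and 3.58 in ST, below the background level, or at least 3.74-fold (fitted difference −3.51, SE 0.338, adjusted p = 8.11e-05).

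The X-linked members fell into pachytene together with *Cycs* as the 3 largest falls of the set. *Ndufb11* (chrX:20615326-20617619) went from 12.52 and 12.62 in B6 LP and 12.38 and 12.09 in PWD LP to 4.59, 4.17, 4.41 and 4.68 in RP. All RP arrays were below the background level, so that the fall was at least 136-fold (fitted difference −7.94, SE 0.142, adjusted p = 8.42e-09). In spermatids it was at 8.26 and 8.43 in B6 and 7.22 and 7.49 in PWD, at least 5.77-fold above RP (fitted difference 3.39, adjusted p = 1.91e-06). *Ndufa1* (chrX:37187588-37191238) was at 15.44 and 15.85 in B6 LP and 15.13 and 15.19 in PWD LP. In RP it remained above the background level, at 10.73 and 10.87 in B6 and at 7.50 and 7.66 in PWD, and in ST it was at 10.21 and 10.31 in B6 and at 9.14 and 9.71 in PWD. Over both strains it fell by 6.21 into pachytene (SE 0.145, 74.2-fold, adjusted p = 1.81e-08) and rose by 0.65 into spermatids (SE 0.145, adjusted p = 0.00853). The strains differed at both steps. At the first step *Ndufa1* fell by 4.85 in B6 and fell by 7.58 in PWD, and this change was lower in PWD by −2.73 (SE 0.289, adjusted p = 0.000877). Into spermatids *Ndufa1* rose by 1.85 in PWD (adjusted p = 0.000378) and gave −0.54 in B6 (adjusted p = 0.0931), a difference between the strains of 2.38 (SE 0.289, adjusted p = 0.00382). Autosomal members spanned −6.90 to 3.51 at the first step, and with 2 X-linked genes no test by chromosome was made.

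**Figure D3:**
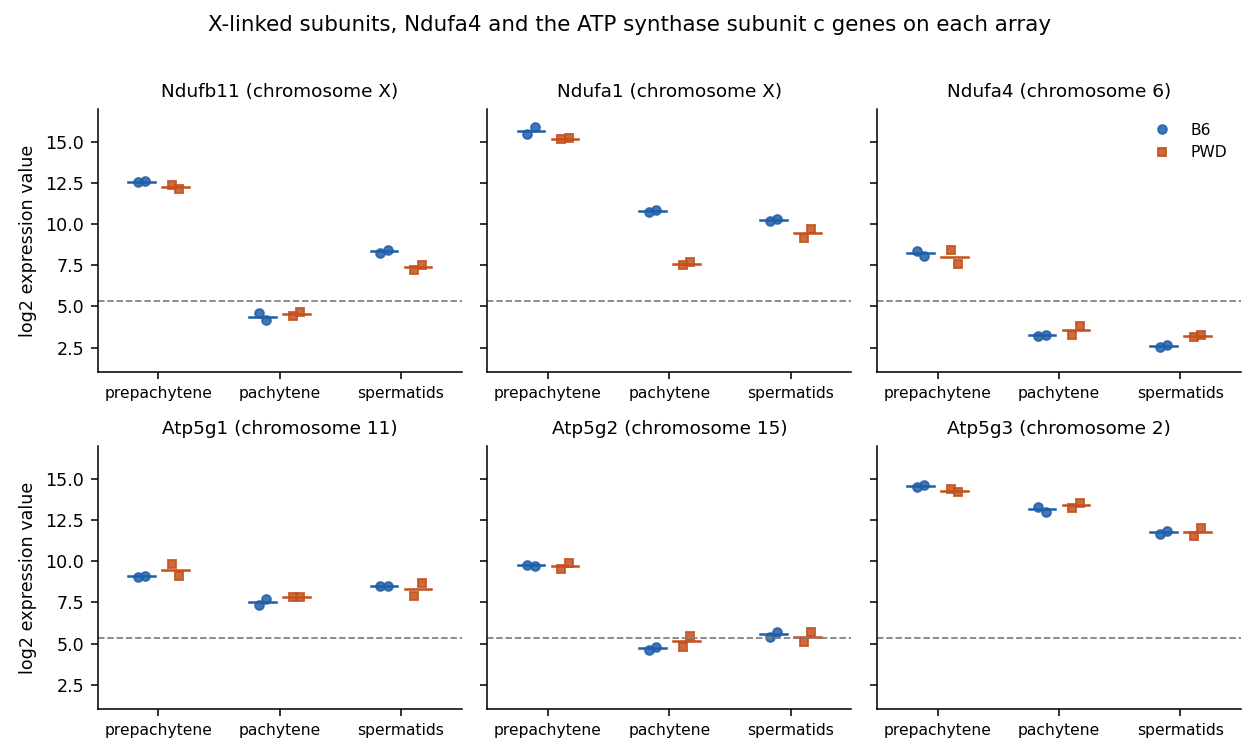
Log2 expression values (vertical axis) on each array of the X-linked subunits *Ndufb11* and *Ndufa1*, of *Ndufa4* and of the 3 subunit c genes in the 3 populations; blue circles are B6, orange squares PWD, the short line the mean of 2 arrays and the dashed line the background level. *Ndufb11*, *Ndufa4* and 3 of 4 arrays of *Atp5g2* lie below the dashed line in pachytene, and *Ndufa1* is lower in PWD (7.50 and 7.66) than in B6 (10.73 and 10.87) there.

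Strain differences were fewer than differences between populations. A strain comparison set 2 arrays against 2 and a population comparison 4 against 4, so that these counts do not have equal precision. In LP 15 members were higher and 6 lower in PWD (16.6% and 5.88% of all genes), in RP 11 and 3 (12.1% and 5.05%), and in ST 9 and 9 (9.56% and 7.54%). Among genes above the background level the shares were 25.1% and 8.4%, 21.5% and 6.37%, and 15.5% and 9.07%. The median difference of the members was 0.19 in LP, 0.36 in RP and 0.05 in ST, against 0.31, 0.37 and 0.10 for genes above the background level. After centring, the splits were 11 higher and 26 lower in LP, 5 and 15 in RP and 10 and 13 in ST. Centring moved the median of all genes from 0.02 to −0.24 in LP and from 0.09 to −0.23 in RP, so that the balance between strains in these populations depended on the scaling, and differences below about this size have no settled direction. Leaving out single arrays moved these counts by over 1.5 times as well: the 15 members higher in LP became 6 without B6 LP replicate 1, 2 without B6 LP replicate 2, 2 without PWD LP replicate 1, 9 without either B6 RP array and 8 without either B6 ST array, and the 6 lower became 2 without B6 LP replicate 1 and 3 without B6 LP replicate 2 or PWD LP replicate 2. The 11 higher in RP became 4 without B6 RP replicate 1, 2 without B6 RP replicate 2, 4 without PWD RP replicate 2 and 7 without either B6 ST array. In ST the 9 higher became 4 without B6 ST replicate 2 or PWD ST replicate 2, and the 9 lower became 5 without either B6 ST array and 4 without PWD ST replicate 1. In LP the spermatid markers averaged more in PWD (values above, 4 of 12 called higher), and the Sertoli cell markers averaged 6.90 and 6.61 in PWD against 6.25 and 5.87 in B6 (2 of 10 called higher and 1 lower). In ST the spermatid markers averaged 13.19 and 13.64 in PWD against 14.04 and 14.02 in B6 (4 of 12 called lower and none higher, median difference −0.61), the prepachytene markers 7.15 and 7.37 against 6.69 and 6.67 (3 of 12 called higher), the Sertoli cell markers 4.82 and 5.28 against 4.45 and 4.59 (2 of 10 called higher) and the Leydig cell markers 3.69 and 3.75 against 2.96 and 2.91 (1 of 4 called higher). The part of these markers' cells in the strain counts and in the strain differences of single members given below was not tested. The probes were designed on a sequence close to B6, and whether PWD variants lie under a probe was not analysed here.

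By the F test, 13 of the 83 members had a strain difference that varied between populations (20.1% of all genes). Strain differences that passed in every alternative setting run were found in 7 members: *Ndufa1*, *Ndufa4l2*, *Sdhc*, *Ndufb9*, *Ndufc2*, *Ndufa6* and *Cox6b2*. Those of *Ndufa12*, which did not pass with another of its probesets, are described with its probesets. *Ndufa1* was lower in PWD in RP (difference −3.22, SE 0.204, adjusted p = 4.44e-05). In ST its difference of −0.83 (adjusted p = 0.0351) was lost without any 1 of 9 arrays (all but the B6 LP arrays and PWD ST replicate 2; adjusted p = 0.05 to 0.164). *Ndufa4l2* was at least 2.46-fold lower in PWD in RP (fitted difference −3.83, adjusted p = 0.000546) and at least 2.17-fold lower in ST (fitted difference −2.70, adjusted p = 0.00263). *Sdhc* was lower in PWD in ST by 1.76 (SE 0.187, adjusted p = 0.000571), and by 0.82 in LP, where the call was lost without B6 LP replicate 1 or either PWD LP array (adjusted p = 0.0571 to 0.11).

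Higher values in PWD were found for *Ndufb9*, *Ndufc2*, *Ndufa6* and *Cox6b2*. *Ndufb9* was at 10.93 and 10.85 in B6 ST and at 12.69 and 12.94 in PWD ST (difference 1.93, SE 0.173, adjusted p = 0.000219). In RP it was at 12.37 and 12.44 in B6 and at 13.53 and 13.95 in PWD (difference 1.33, adjusted p = 0.00202), a call lost only when the arrays of these 2 groups were fitted alone (adjusted p = 0.0501). *Ndufc2* was higher by 1.13 in ST (SE 0.157, adjusted p = 0.0023), and by 2.74 with its brightest probeset that does not end in _s_at or _x_at. *Ndufa6* was at 10.54 and 10.09 in B6 LP and at 12.04 and 11.52 in PWD LP (difference 1.47, SE 0.233, adjusted p = 0.00354), while its RP values of 10.93 and 11.00 in B6 and 11.07 and 10.97 in PWD overlapped. The testis form *Cox6b2* was higher in PWD in all 3 populations, by 1.33 in LP (SE 0.161, adjusted p = 0.000938), 1.00 in RP (adjusted p = 0.00571) and 0.76 in ST (adjusted p = 0.0181). The RP call was lost after a second quantile normalization (adjusted p = 0.174), and the ST call was lost without any 1 of the 4 ST arrays (adjusted p = 0.059 to 0.0903). The other testis forms did not pass in any population (differences −0.13 to 0.75).

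The remaining strain differences named by rank or by the F test were each lost in at least 1 alternative setting. In LP *Ndufb10* was higher in PWD by 1.26, which did not pass without either B6 LP array, either B6 ST array or PWD LP replicate 1 (limma adjusted p = 0.0526 to 0.146). *Atp5o* (1.11) did not pass without B6 LP replicate 2 or PWD LP replicate 1 (0.1 and 0.0678). *Atp5md* (0.97) did not pass without either array of B6 RP, B6 ST or PWD LP or without B6 LP replicate 2 (0.0614 to 0.226). For *Cycs* (0.89) the call was lost without either B6 LP array or PWD LP replicate 1 (0.055 to 0.0647), and for *Ndufb9* in LP (0.75) without B6 LP replicate 2 or PWD LP replicate 1 (0.117 and 0.0859). Lower values in PWD LP were found for *Sdhd* (−0.84), lost without B6 LP replicate 1 (0.0612), for *Atp5b* (−0.72), lost without B6 LP replicate 2 (0.0672), for *Ndufs3* (−0.70), lost without either B6 LP array or PWD LP replicate 2 (0.058 to 0.101), and for *Uqcrc2* (−0.63), lost without the same arrays (0.0771 to 0.0886). With array weights no one of these LP calls passed (0.0733 to 0.199).

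In RP *Ndufb1* was higher in PWD by 1.01 and was lost without B6 RP replicate 2 (limma adjusted p = 0.0603). *Atp5pb* (0.77) and *Uqcrc2* (0.65) were lost without either B6 RP array or PWD RP replicate 2 (0.0708 to 0.0896 and 0.101 to 0.122), and after a second quantile normalization (0.147 and 0.229). After centring the RP call of *Uqcrc2* was lost too (limma adjusted p = 0.0567). *Ndufa9* was higher in PWD in RP by 0.48, but by only 0.03 after a second quantile normalization, where the call was lost. Other settings that lost it were centring (0.236), a replicate block (0.0596) and a fit to the RP arrays alone (0.0683). The omission of any RP, B6 LP or B6 ST array lost it too. *Atp5a1* (0.63 in RP) was lost when the RP arrays were fitted alone (0.0516). The call was also lost without B6 RP replicate 2 (difference 0.54) and without PWD RP replicate 2 (difference 0.62). In ST *Atp5a1* (0.71) and *Uqcrc2* (0.87) were higher in PWD and were lost only when the ST arrays were fitted alone (0.101 and 0.0876). *Atp5pb* (0.85) was lost without B6 ST replicate 2 or PWD ST replicate 2 (0.0658 and 0.0543), and *Sdhd* (0.75) without B6 ST replicate 2 or either PWD ST array (0.0519 to 0.13). The X-linked *Ndufb11* was lower in PWD by 0.99 and was lost without B6 ST replicate 2 or PWD ST replicate 1 (0.0951 and 0.0863), or with a probeset that does not end in _s_at or _x_at (0.552).

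**Figure D4:**
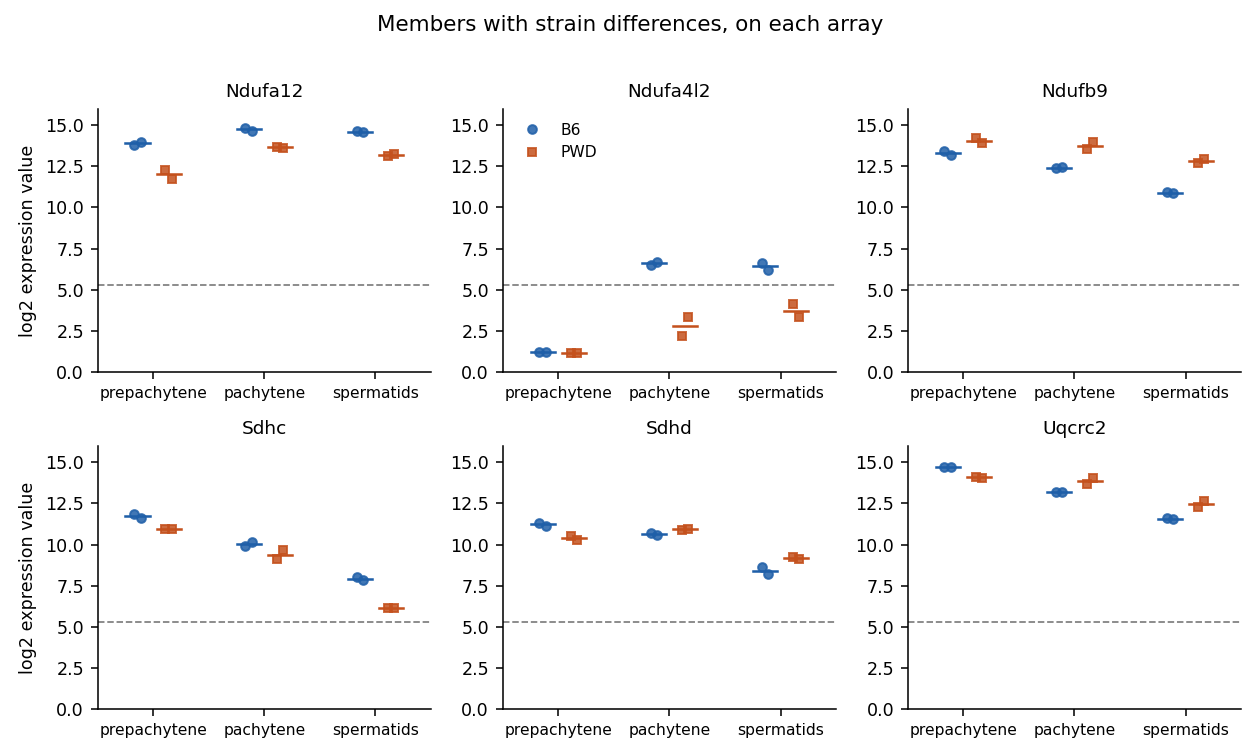
Log2 expression values (vertical axis) on each array of 6 members with strain differences in the 3 populations; blue circles are B6, orange squares PWD, short lines mark the means of 2 arrays, and a dashed line marks the background level (5.32). *Ndufa12* and *Sdhc* lie below B6 on all PWD arrays (the *Sdhc* difference of −0.66 in pachytene did not pass the test), *Ndufb9* lies above B6 on all PWD arrays, *Ndufa4l2* is above the dashed line only in B6 pachytene and spermatids, and *Sdhd* and *Uqcrc2* are lower in PWD in prepachytene and higher in spermatids.

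Probesets of the same gene did not always give the same strain difference. For *Ndufa12*, the brightest probeset was lower in PWD by 1.89 in LP, 1.07 in RP and 1.41 in ST (adjusted p = 0.000124, 0.00329 and 0.000637). The second-brightest gave −1.24, −0.69 and −0.91, of which the RP value did not pass (adjusted p = 0.103). The next brightest gave −0.05 (adjusted p = 0.9), 0.50 (adjusted p = 0.0433) and −0.07 (adjusted p = 0.8), so that it was called in the opposite direction in RP. Its only probeset without an _s_at or _x_at suffix (these mark probes that can match several transcripts) was below the background level on all arrays, and with it no strain difference passed (−0.11, 0.035 and −0.04 in LP, RP and ST, adjusted p = 0.695, 0.907 and 0.922). The rise of *Ndufa12* into pachytene was seen with the 3 probesets above the background level (1.25, 1.26 and 1.53). For *Ndufb9* the strain difference had the same direction with both probesets above the background level (0.93, 1.83 and 2.33 with the dimmer one), but between LP and RP the brighter one fell by 0.59 (adjusted p = 0.0034) and the dimmer one rose by 0.57 (adjusted p = 0.00442). *Uqcr10*, a small subunit of complex III, was singled out after its values were seen. Its brightest probeset was at 7.40 to 8.17 on all arrays. With the dimmest of its probesets it was at 3.92 and 3.10 in B6 LP, 8.20 and 8.61 in B6 RP and 8.82 and 9.21 in B6 ST, and at 2.51 to 3.36 on all PWD arrays, below the background level, so that PWD was at least 8.47-fold lower in RP (adjusted p = 1.73e-05) and at least 12.9-fold lower in ST (adjusted p = 9.77e-06). With the second-brightest, PWD was lower by 3.06 in RP (adjusted p = 0.000114) and by 3.41 in ST (adjusted p = 4.8e-05). Over the members with more than 1 probeset above the background level, the probesets were called in opposite directions in 1 gene at the step into pachytene (*Ndufb9*), in 1 gene between strains in RP (*Ndufa12*) and in none in the other 3 comparisons. At the step into pachytene only some of the probesets were called in 21 genes, and all gave the same result in 18. Only some were called in 8 genes into spermatids, and between strains in 15 in LP, 9 in RP and 15 in ST. The calls of these genes thus depended on the probeset chosen.

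**Figure D5:**
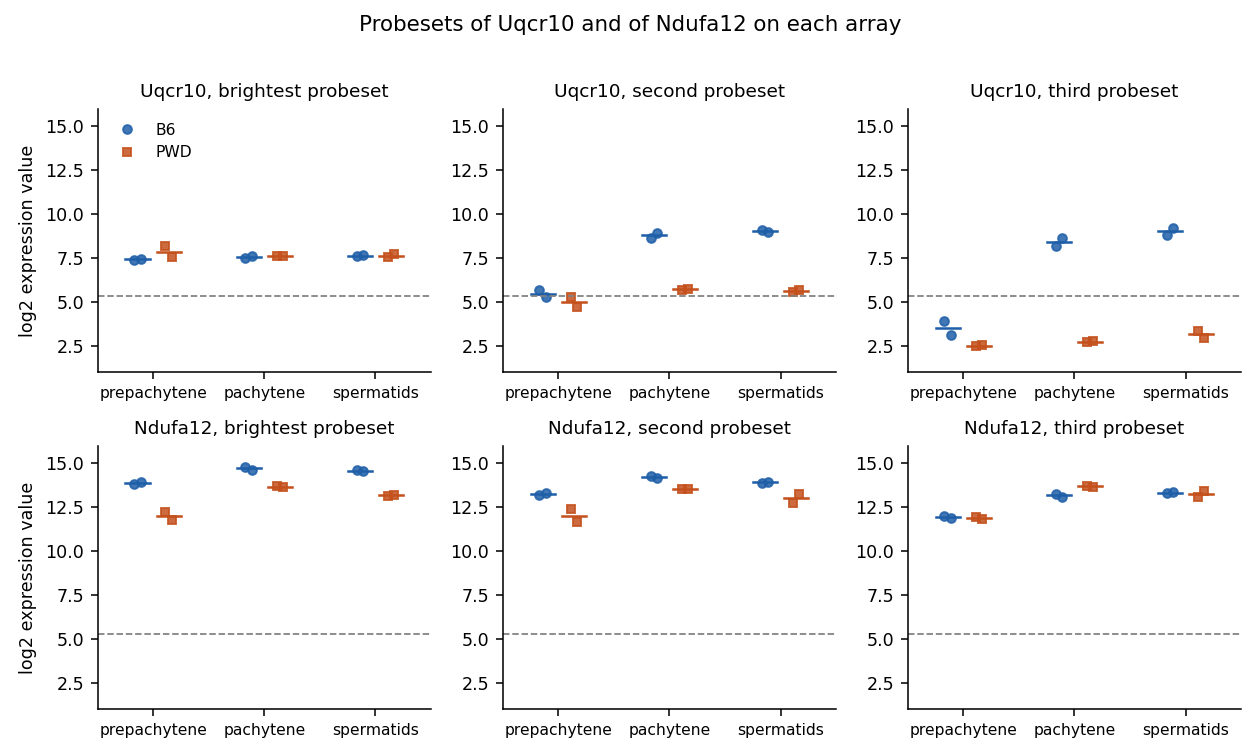
Log2 expression values (vertical axis) on each array of the 3 brightest probesets of *Uqcr10* (upper row) and of *Ndufa12* (lower row) in the 3 populations; blue circles are B6, orange squares PWD, the short line the mean of 2 arrays and the dashed line the background level. With the dimmer probesets of *Uqcr10* (upper middle and right) the B6 arrays of pachytene and spermatids lie at 8.20 to 9.21, far above PWD, whereas the brightest is level and shows no such separation.

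Genes that assemble, regulate and feed the chain were followed with the same fit, and those named are the 3 highest and the 3 lowest past the threshold. Of 49 assembly factors, 21 rose and 23 fell into pachytene (median −0.07), and 8 rose and 19 fell into spermatids (median −0.40). Of the genes above the background level 42.2% rose and 40.8% fell at the first step and 25.6% rose and 44% fell at the second (of all genes 43.7%, 28.4%, 18.2% and 23.8%), so that the assembly factors were near the shares of the genes above the background level. The copper chaperone of complex IV *Sco2* (2.99), the complex I factor *Tmem186* (2.64) and the complex III factor *Uqcc3* (2.51) rose most into pachytene. *Cox15*, which makes haem A, *Ndufaf6* and *Bcs1l*, which inserts the Rieske protein, fell below the background level, by at least 5.61, 2.28 and 4.08 on the log2 scale. Into spermatids *Ecsit* rose by at least 2.48, *Nubpl* by 3.23 and *Uqcc1* by 1.89, while *Acad9* fell by at least 1.40, *Tmem186* by 2.18 and *Tmem70* by 2.08.

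Of 19 regulators of mitochondrial biogenesis and mitochondrial DNA, 3 rose and 13 fell into pachytene (median −1.41), and 7 rose and 6 fell into spermatids (median −0.09). Beside the same shares (42.2% and 40.8%, then 25.6% and 44%), rises were fewer and falls more at the first step, which is a description without a test. *Pprc1*, a coactivator of the NRF1 pathway, and *Gabpb1*, a subunit of the ETS-family factor GABP, fell by at least 4.89 and 4.64, and *Ssbp1*, which binds single-stranded mitochondrial DNA, fell by 3.78. The orphan receptor *Esrra* rose by 2.95 and *Mterf1a* by 2.00, and *Ppargc1a* was called higher with population means below the background level. *Tfam*, which packages mitochondrial DNA, was at 9.92 in LP, 6.96 in RP and 10.42 in ST and rose most into spermatids (3.46, adjusted p = 1.29e-05), followed by *Gabpb1* (at least 1.23) and *Nrf1* (1.25). *Yy1* (−3.11), *Polrmt* (−1.58) and *Mterf1a* (−1.38) fell most at that step.

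Of 17 genes of pyruvate dehydrogenase and the citric acid cycle, 7 rose and 8 fell into pachytene (median −0.22), and 4 rose and 4 fell into spermatids (median −0.25), against 42.2% and 40.8% and then 25.6% and 44% of the genes above the background level. *Pdha2*, the autosomal testis copy of the E1 alpha subunit, rose by 2.36 (adjusted p = 1.22e-06), *Pdhx* by 2.63 and *Suclg1* by 1.86. The X-linked *Idh3g* fell by at least 5.91, *Mdh2* by 5.03 and *Suclg2* by 4.34. Into spermatids *Fh1* rose by 3.20 and *Suclg2* by 1.79, *Idh3g* was called higher with both population means below the background level, and *Dlst* (−1.70), *Cs* (−1.27) and *Idh3a* (−0.91) fell. Of the chain genes outside the symbol families, *Cyc1*, the cytochrome of complex III, fell by 3.66 and 1.23, the X-linked haem lyase gene *Hccs*, which attaches haem to cytochrome c, fell into pachytene by at least 5.94 and stayed below the background level in spermatids, and *Atpif1*, the inhibitor of ATP synthase, rose by 2.23 into pachytene. *Dmac2* rose by 0.51 and fell by 0.43. The mitochondrially encoded subunits were not analysed here.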

How the data were processed

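RNA of 12 sorted populations was hybridised to Affymetrix mouse genome arrays after labelling of 15 to 40 ng of total RNA by the Two-Cycle protocol. The authors deposited log2 expression values, for which the submitters' processing notes name GCRMA. This method corrects the background by probe sequence and normalizes quantiles over arrays, which can shift many values where populations differ in RNA content. Its version is not given in the sources used here. From the 45101 deposited rows, 64 control probesets were left out. Names came from the platform annotation, updated through RefSeq (GRCm38.p6): 34945 name 1 gene, 932 several and 9160 none, and 204 of the first were not found in the RefSeq table. No per-sample column was left unused. Spot depth does not apply to arrays, and their number, 2 a group, limits the precision.

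The values were tested with limma 3.58.1 (R 4.3.3): 6 group means over 12 arrays, a variance prior that follows the mean, Benjamini-Hochberg adjustment over 45037 probesets and a threshold of 0.05. The comparisons were RP versus LP and ST versus RP over both strains, PWD versus B6 in each population, and an F test for a strain difference that varies between populations. Folds marked "at least" set a probeset below background on every array of a group against the lowest value counted as detected. Isoform differences within arrays were compared by a two-sided exact permutation test of 4 arrays against 4 (Python 3.11.15, scipy 1.17.1, pandas 2.3.3, numpy 2.4.6; plots with matplotlib 3.10.9). The fit was tested on simulated data. Arrays of a group correlated at 0.987 to 0.996.

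The members and the gene lists were chosen with earlier results of these data known. Genes named are the isoform pairs and families, X-linked members, the 5 highest and 5 lowest past the threshold in each comparison with 1 side above background, those that passed the F test, those with opposed probesets, and 3 each way of the other lists; all other members named were chosen after their values were seen. Alternatives were centring, a second quantile normalization, array weights, blocks for the replicate number, fits to fewer arrays or probesets, other probesets and the omission of each array. The study's methods also name other array types and RMA, which were not used here.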

Additional observations from a re-analysis of the deposited data

Results flagged for a closer look

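The strain difference depended on the population in 13 of the 83 members by the limma F test (20.1% of all genes, 24.5% of those above the background level), and these are listed for that reason. The adjusted p was 0.00102 for *Ndufa1*, 0.00382 for *Uqcrc2*, 0.00633 for *Ndufa4l2* and 0.00674 for *Sdhd*, and these 4 passed in every alternative setting run. *Sdhd* fell by 0.59 into pachytene in B6 (adjusted p = 0.022) and rose by 0.54 in PWD (adjusted p = 0.0212), a difference between strains of 1.13 (SE 0.232, limma adjusted p = 0.0189). Its LP values were 11.31 and 11.14 in B6 and 10.51 and 10.27 in PWD, and its RP values 10.71 and 10.56 in B6 and 10.91 and 10.96 in PWD. *Uqcrc2* fell by 1.52 into pachytene in B6 and gave −0.23 in PWD (adjusted p = 0.194), a difference of 1.29 (SE 0.206, limma adjusted p = 0.00646). It was lower in PWD in LP (14.14 and 14.05 against 14.72 and 14.73) and higher in RP (13.70 and 14.02 against 13.19 and 13.22). In *Ndufa4l2* the B6 arrays of RP and ST were above the background level and the PWD arrays were not.

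The other members passed in 6 to 17 of 19 alternative settings. The adjusted p was 0.017 for *Cycs*, 0.0215 for *Ndufs3*, 0.0261 for *Ndufa9*, 0.0336 for *Ndufb9*, 0.0384 for *Atp5h*, 0.0395 for *Ndufa6*, 0.0403 for *Atp5a1* and 0.0439 for *Sdhc*. *Cycs* fell by 6.47 into pachytene in B6 and by 7.33 in PWD, although the difference between these falls did not pass by itself (adjusted p = 0.0767). *Cox6a2* had 0.00271 while below the background level on all arrays.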

How the results depend on the processing

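Of 102 tested results of named members, 58 kept their side of the threshold in every alternative, and the cause of the other changes was not tested. The counts moved as follows. Centring on the probesets above the background level gave 32 members higher in RP than in LP, 16 higher in ST than in RP, 26 lower in PWD in LP, and 5 higher and 15 lower in PWD in RP. A second quantile normalization gave 11 higher in ST than in RP, 15 lower in PWD in LP, 3 higher and 10 lower in PWD in RP, 14 higher in PWD in ST and 25 in the F test. Array weights gave 2 higher and 1 lower in PWD in LP and 29 higher and 6 lower in RP. Probesets above the background level alone gave 25 higher and 5 lower in PWD in RP. Fits to the arrays compared alone gave 5 higher in LP, 1 higher in RP and 4 higher and 4 lower in ST.

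Leaving out 1 array at a time gave 16 to 23 higher and 34 to 42 lower into RP, 6 to 9 and 32 to 48 into ST, 2 to 18 and 2 to 9 between strains in LP, 2 to 14 and 3 to 4 in RP, 4 to 10 and 4 to 12 in ST, and 5 to 14 in the F test, where the 13 became 7 without B6 LP replicate 1 or B6 ST replicate 2, 5 without B6 LP replicate 2, 6 without B6 RP replicate 2 and 8 without B6 ST replicate 1. The isoform changes ranged from 8.10 to 8.55 and −4.16 to −3.81 (*Cyct* and *Cycs*), 4.58 to 4.94 and −0.24 to 0.22 (*Cox6b2* and *Cox6b1*) and 2.82 to 3.05 and −1.14 to −1.003 (*Cox8c* and *Cox8a*), with too few arrays for the exact test to pass.

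Same-numbered arrays did not deviate together (correlations −0.275 to 0.1), so the numbers were not taken as pairs. Within PWD, RP gave −0.275 with LP and −0.196 with ST. Whether arrays of the same animal carry different numbers was not tested. A replicate block gave 7 members higher in PWD in RP and lost 4 of the 102 named calls. Sign flips over 4 pairs left 8.37, −4.02, 4.79, 2.92 and −1.08 for the isoform changes with p = 0.125, the smallest that exact test gives.

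The *Cox6b2* minus *Cox6b1* change into ST was −0.005 after a second quantile normalization. Without probesets that end in _s_at or _x_at, *Atp5o* differed by 0.16 and *Ndufa12* by −0.12 between RP and LP, and *Ndufa12* by 0.035 between strains in RP, from a probeset below the background level; *Cox8a* gave −0.018 into RP after a second quantile normalization.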

Other observations

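Probesets that name several genes, of which 1 belongs to the chain, were outside the set (9 probesets). Those of *Ndufb4* and its copies *Ndufb4b* and *Ndufb4c* rose into pachytene by 1.21 (limma adjusted p = 0.000101) and 0.58 (adjusted p = 0.0115), whereas the only probeset of *Ndufb4* alone was below the background level. The brighter probeset of *Ndufa11* and *Ndufa11b* fell by 0.98 into pachytene and 1.06 into spermatids (adjusted p = 0.00125 and 0.00129). That of *Ndufs6* and *Ndufs6b* gave 0.44 (adjusted p = 0.0557) and then fell by 0.96 (adjusted p = 0.00306), and that of *Ndufs5* and *Ndufs5-ps* gave −0.09 (adjusted p = 0.663) and then fell by 0.70 (adjusted p = 0.0172). The other 4 had population means of 2.00 to 2.54.

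Among the assembly factors, some strain differences in ST exceeded those of any member there (−2.70 to 1.93), while others given here did not. Each of these genes was read with its brightest probeset alone, and their alternative settings are not given. *Lyrm7*, a complex III factor, was lower in PWD by at least 1.72 on the log2 scale in RP and by at least 5.10 in ST (limma adjusted p = 1.13e-05 and 3.49e-07). *Cmc2*, a complex IV factor, differed by −2.88 in RP and −3.91 in ST and by 0.77 in LP (PWD minus B6, all past the threshold). *Sdhaf3*, a complex II factor, was higher in PWD by 5.06 in ST (adjusted p = 0.000103). *Ndufaf3* was higher in PWD in all 3 populations, by 2.11, 1.53 and 2.31, and *Surf1* by 2.70, 1.79 and 1.65. Of the regulators, *Gabpb1* was lower in PWD by at least 3.23 in ST.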
